A study of Mus musculus with 2 samples.

Results

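Mmp12-high alveolar macrophages were studied here as the lung cells that carried alveolar macrophage transcripts together with a raised share of Mmp12, the gene of macrophage elastase. A cell was a member when at most 10% of its UMIs (unique molecular identifiers, each one captured transcript) were mitochondrial, when Mmp12 made up at least 0.1% of its UMIs, and when at least 2 of 10 genes had a UMI. The 10 genes were Ear2, Mrc1, Marco, Abcg1, Krt79, Plet1, Atp6v0d2, Car4, Lpl and Fabp1. A member also had no UMI of Pecam1, Cd79a or Lamp3. Of 15453 cells in 2 libraries, 220 were members, 209 in the library labelled fibrosis and 11 in the library labelled control. They were set beside comparison cells, which carried 4 or more of the same 10 genes and less than 0.1% Mmp12, and which numbered 726 in the fibrosis library and 626 in the control library.

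The libraries came from whole lungs of male C57Bl/6J mice aged 3 months, 1 mouse each, killed 14 days after 100 µg of particles was instilled into the trachea. The protocol names titanium dioxide and crocidolite asbestos, a fibre that scars the lung, but not which mouse was given which, and the names control and fibrosis are those of the labels. Neither label names a transgene or an allele. Lungs were perfused and digested with dispase and DNase I, red cells were lysed, and single cells were counted with 10x Genomics 3′ V2 chemistry. With 1 mouse per group no difference between the libraries has a replicate check, no p-value was computed, and every 95% interval below covers counting error only.

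Alveolar macrophages live in the airspace, where they clear surfactant and inhaled particles; they are seeded before birth, and after injury blood monocytes can mature into alveolar macrophages too. Macrophage elastase degrades elastin and other matrix proteins and is known from smoke-exposed and fibrotic lung. Osteopontin (Spp1), arginase 1 (Arg1), lactadherin (Mfge8), which links dying cells to integrins, and Gpnmb, a membrane glycoprotein of lysosomes, are the other genes by which the cells were labelled.

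The fibrosis library held 38090308 UMIs in 7173 cells and the control library 36632591 UMIs in 8280 cells. The filter on mitochondrial UMIs left 6945 and 8026 cells. Members of the fibrosis library had a median of 5176 UMIs per cell, against 5101 in its comparison cells and 4923 in those of the control library. The libraries shared 89 barcodes, which included 2 members and 8 comparison cells of the fibrosis library. A doublet caller, run as an alternative, marked 2 of the 209 members and 13 of the 726 comparison cells. Of 387 B cell-like cells of the fibrosis library, 27 (6.98%, at a median depth of 2664 UMIs) held a Mmp12 UMI, and 2 reached the 0.1% level. These cells were set by B cell markers and a few also carried alveolar genes, up to 9 of the 10, and the source of such UMIs was not tested.

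Members made up 209 of 935 cells in the alveolar macrophage range of the fibrosis library, which is 22.4% (exact Clopper-Pearson 95% interval 19.7 to 25.2%). In the control library they made up 11 of 637, which is 1.73% (0.865 to 3.07%). Of the 11, 8 had little Chil3, and among cells with 0.5% Chil3 or more the shares were 19.1% and 0.498%. The range means members and comparison cells together, so both shares depend on the rule. Of the 301 cells of the fibrosis library at or above 0.1% Mmp12, 76 were left out because of Pecam1, Cd79a or Lamp3, of which 57 held a single UMI of these genes, and 16 because they carried fewer than 2 of the 10 genes.

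Mmp12 itself, on which members were chosen, reached 3.82% of a member's UMIs, with a median of 0.341%, and 41 members were at 1% or more. Cells lay on both sides of the boundary, with 18 members between 0.1 and 0.12% Mmp12 and 8 comparison cells between 0.08 and 0.1%. CPM is a gene's UMIs per 1000000 UMIs, summed over the cells of a group. Spp1 was at 938 CPM (760 to 1145) in the 18 members and 327 CPM (174 to 559) in the 8 comparison cells. In the same order, Chil3 was at 31700 and 77575 CPM, Arg1 at 215 and 628 CPM, and the cathepsin L gene Ctsl at 371 and 980 CPM. Levels near the boundary thus differed in both directions, on few cells, and a smooth change across it was not read from them. Of the 726 comparison cells, 177 had at least 1 Mmp12 UMI. Members made up 3.01% of the cells and 3.40% of the UMIs left in the fibrosis library after the mitochondrial filter, and by the rule that chose them they held 63.8% of its Mmp12 UMIs.

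The label was checked against the cells' own transcripts. Of the 209 members, 163 had Chil3 at 0.5% of UMIs or more, a floor that most comparison cells also passed. Chil3 encodes a chitinase-like protein abundant in mouse alveolar macrophages. All 209 members had a median of 5.36% Chil3, against 2.05% in the 726 comparison cells of the same library. The 163, chosen on Chil3, had a median of 6.65%. The other 46 members (22.0%, 16.6 to 28.2%) fell below 0.5%, with a median of 0.0319%. This level was chosen after the values were seen, and 7 members lay between 0.25 and 1%. It did not separate the programs cleanly, since 19 of the 163 carried 4 or more of the interstitial genes named next and 19 of the 46 carried 4 or more of the 10 alveolar genes. Of the 46, 27 carried 4 or more of 6 genes of interstitial macrophages (among them C1qa, C1qb and C1qc), which live in the lung tissue rather than the airspace. In the control library 8 of the 11 members were Chil3-low, 6 of them with 4 or more interstitial genes. Members with at least 4 of the 10 alveolar macrophage genes numbered 170, and the remaining 39 had 2 or 3.

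**Figure D1:**
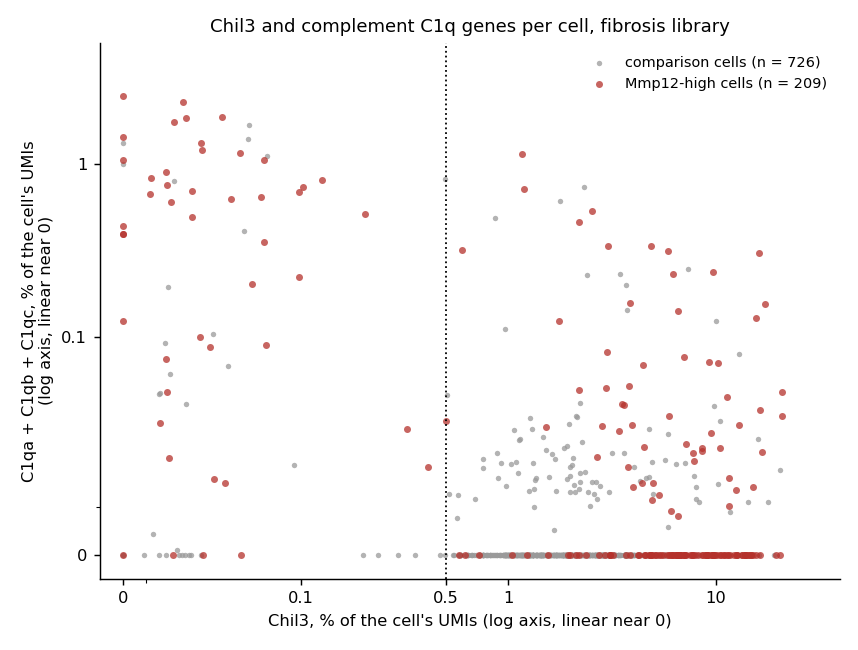
Each point is 1 cell of the fibrosis library, with Chil3 on the horizontal and the summed complement C1q genes on the vertical axis, both as percent of the cell's UMIs on log axes that turn linear near 0. The dotted line at 0.5% Chil3 separates 163 members from 46 members that lie to its left, where most points with C1q near 1% are found.

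Compared with Mmp12-low cells of the same library, members carried more of a set of chemokine, receptor, protease and secreted-protein transcripts, and less of several resident macrophage transcripts. Airway transcripts were lower too, through a few comparison cells described further on. Of 7712 genes with 50 or more UMIs over both groups, 271 (3.51%) were at least 2-fold higher in members and 334 (4.33%) at least 2-fold lower, and the median log2 ratio was -0.05. Because members were selected on Mmp12, these counts and the ratios below describe the contrast and test nothing. When comparison cells needed only 2 of the 10 genes, as members do, 307 genes were at least 2-fold higher and 1178 lower, so the higher share of genes past 2-fold was 20.7%, against 44.8% under the rule as given, through more lower genes.

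Spp1 was at 3941 CPM (3833 to 4052) in members, 1303 in comparison cells of the same library and 367 in those of the control library. The 209 members contained 4992 Spp1 UMIs, of which the 5 cells with most held 40.4%. After thinning each cell to 1900 UMIs, 49.8% of members and 50.7% of comparison cells had a Spp1 UMI, so no order was read from the share. Arg1, which hydrolyses arginine, was at 369 CPM (336 to 404) in members and 78.7 in comparison cells, and 1 UMI was found in the 626 control cells. At equal depth 28.2% of members had an Arg1 UMI (22.2 to 34.9%), against 4.13% of comparison cells, 0 of 609 control cells, which allows up to 0.493% of cells with a UMI at this depth, and 0.517% of B cell-like cells. Arg1 therefore marked a minority of members.

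Gpnmb was at 651 CPM in members, 231 in comparison cells and 246 in control comparison cells, a ratio of 2.82-fold. With the 5 cells richest in Gpnmb left out of each group the log2 ratio was 0.93, below 2-fold. Mfge8 stood further apart: it was at 875 CPM (824 to 928) in members, 30.6 in comparison cells and 9.87 in control comparison cells. At equal depth 32.5% of members and 4.13% of comparison cells had an Mfge8 UMI. Of the 4 label genes other than Mmp12, Gpnmb was thus the one whose difference fell below 2-fold without a few cells, and Mfge8 the one with the largest ratio.

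The genes with the highest ratios were Ccl24, Mt3, H2-M2, Npy, Rbp4, Mfge8, Matk, Mmp14, Rnase2a, AA467197, Il7r, Kcnn4, C3ar1, Adam8 and Atf3, in that order. All 15 were also at least 2-fold higher when both groups were limited to cells with 0.5% Chil3 or more. That limit kept 163 of the 209 members and 690 of the 726 comparison cells, on which the 15 had been picked. It was therefore no separate check of them. Of 7197 genes counted in the limited groups, 3.13% were at least 2-fold higher and 3.22% lower. Ccl24, a chemokine for eosinophils, was at 133 CPM in members (114 to 155) on 169 UMIs, and comparison cells held 3 UMIs, a 162-fold ratio whose log2 interval ran from 5.99 to 9.85. Control comparison cells held none, which made members at least 149-fold higher, counting 3 UMIs in the control group as a bound. Ccl24 was confined to few cells, since 26 of the 209 members had a UMI. Interstitial macrophage-like cells of the same library held 71.1 CPM of it.

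H2-M2, a nonclassical class I histocompatibility gene, was at 159 CPM (138 to 182) in members and 1.65 CPM in comparison cells, and its UMIs were spread over 56 members. Control comparison cells held no UMI, so members were at least 177-fold higher. Npy, which encodes neuropeptide Y, was at 71.8 CPM in members on 91 UMIs from 24 cells, against 7 UMIs from 3 comparison cells. Members held 39.7% of the Npy UMIs and 47.3% of the H2-M2 UMIs of the fibrosis library. Npy was thus rare within the members too.

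Rbp4, the plasma carrier of retinol, was at 744 CPM in members and 18.6 CPM in comparison cells, but 32 of 209 members carried it and 1 cell held 533 of the 942 UMIs (56.6%). Without the 5 cells with most Rbp4 UMIs in each group, the log2 ratio was 4.73 instead of 5.31. Mt3, a metallothionein, rested on 1 cell, which held 75 of the 76 UMIs of the members, so its rank says nothing about the other 208. Bex1, outside the named set and looked at after its values were seen, was alike: 8 members carried its 108 UMIs. For Mt3 and Bex1 the group level thus describes very few cells.

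Of the 15 genes, AA467197 and Rnase2a were found in most members. AA467197 had a UMI in 164 of 209 members and was at 1087 CPM (1031 to 1146), against 62.5 in comparison cells and 5.38 in control comparison cells. Rnase2a, a ribonuclease of the eosinophil-associated family, was at 656 CPM (612 to 702) in members, 115 of which had a UMI, and 31.8 in comparison cells. Control comparison cells held 1 UMI of it, and members carried 59.8% of all Rnase2a UMIs of the fibrosis library. Rnase2a has close paralogs, among them Ear1 and Ear2, between which reads could be split or lost.

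The others had a UMI in fewer members, from 46 for Matk and Adam8 to 72 for Il7r among those not yet described. Il7r, the alpha chain of the interleukin 7 receptor, was at 174 CPM in members and 11.6 in comparison cells, and at equal depth 21.5% of members had a UMI against 2.84% of B cell-like cells. C3ar1, the receptor for complement C3a, was at 82.1 CPM against 7.07 and was higher still, at 208 CPM, in interstitial macrophage-like cells. Kcnn4, a calcium-activated potassium channel, was at 95.5 CPM against 6.84, and Matk, a kinase that restrains Src-family kinases, at 59.2 CPM against 2.36. Atf3, a stress-induced transcription factor, was at 123 CPM in members, 13.4 in comparison cells and 15.5 in control comparison cells. Of the 15 genes, 14 had a higher level in the comparison cells of the fibrosis library than in those of the control library, Atf3 being the exception. For Mt3, Ccl24, H2-M2 and Npy this rested on 2, 3, 7 and 7 UMIs against none. Over all 8582 genes counted between these 2 groups the median log2 ratio was -0.05, and 1.96% were at least 2-fold higher. With 1 mouse per library, no shift of the 15 genes was read from this.

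**Figure D2:**
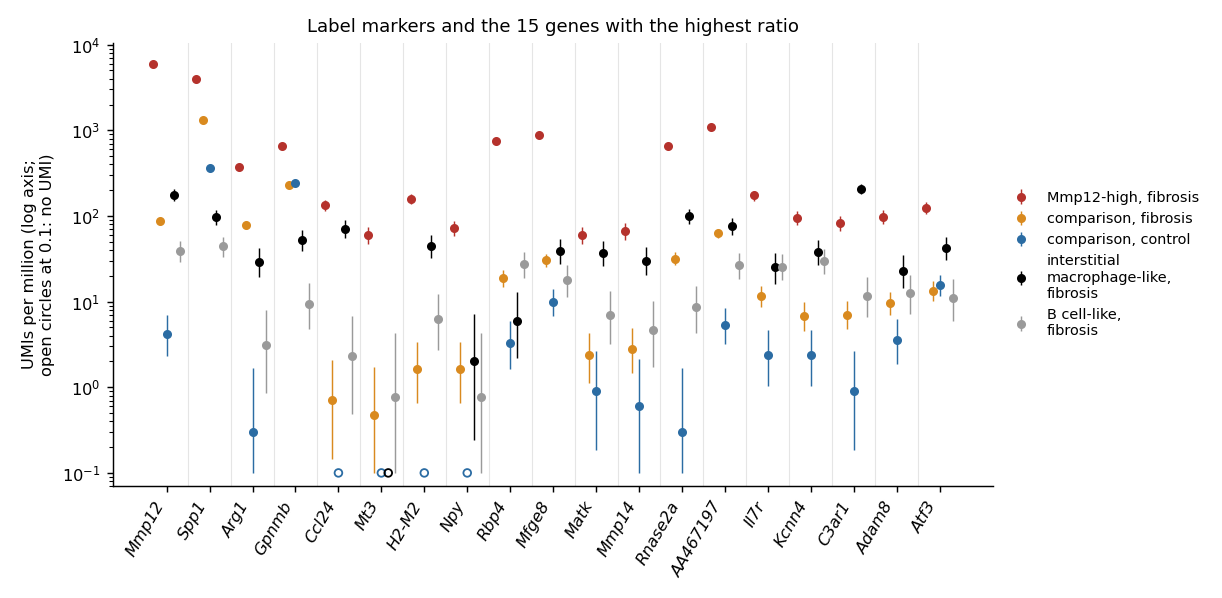
CPM on a log axis, of the label genes and the 15 genes with the highest ratio in 5 groups of cells. Bars are exact Poisson 95% intervals, drawn no lower than 0.1, and open circles at 0.1 stand for groups without a UMI. Members are the highest group for every gene shown but C3ar1, where interstitial macrophage-like cells reach 208.

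The promoters of these genes were searched for 5 short motifs. The stretches that held a motif of PU.1, the myeloid master factor, or of AP-1 are shown. Their genes were each higher in members than in comparison cells, Mmp12 by the rule that chose the members. Shared regulation of these genes was not tested. The search covered the 250 bases before the start site in RefSeq (GRCm38.p6), both strands, and 17 of the 19 genes wanted had an entry, with Arg1 and Ccl24 lacking one. GAGGAAGT, a PU.1 motif, occurred in Mmp12 and Spp1, and in 2.42% of 27025 promoters. TGANTCA, the AP-1 motif, occurred in AA467197 and C3ar1, and in 6.85% of promoters. TCACGTG, a motif of the lysosomal regulators TFEB and TFE3, occurred in AA467197, and in 3.13% of promoters, and no named promoter held TCATGTG, which 3.21% did. TATAAA occurred in C3ar1 and Spp1, and in 12.98% of promoters. No 2 matches overlapped. Capitals mark the matches, each sequence runs 5′ to 3′ on the strand of its gene, and Mmp12 and AA467197 show the reverse complement of GAGGAAGT and of TCACGTG. Mmp12 lies at chr9:7344147-7344396 on the plus strand, Spp1 at chr5:104434861-104435110 plus, AA467197 at chr2:122637637-122637886 plus and C3ar1 at chr6:122856158-122856407 minus.
Mmp12: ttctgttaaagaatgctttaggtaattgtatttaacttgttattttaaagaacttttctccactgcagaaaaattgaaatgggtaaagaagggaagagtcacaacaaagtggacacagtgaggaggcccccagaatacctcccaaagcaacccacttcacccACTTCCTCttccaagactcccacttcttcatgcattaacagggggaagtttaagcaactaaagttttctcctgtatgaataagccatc
Spp1: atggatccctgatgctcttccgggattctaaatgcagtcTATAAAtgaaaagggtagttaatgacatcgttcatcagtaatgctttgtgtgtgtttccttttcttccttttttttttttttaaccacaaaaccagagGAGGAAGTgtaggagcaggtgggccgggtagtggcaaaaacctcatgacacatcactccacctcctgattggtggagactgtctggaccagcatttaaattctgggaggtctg
AA467197: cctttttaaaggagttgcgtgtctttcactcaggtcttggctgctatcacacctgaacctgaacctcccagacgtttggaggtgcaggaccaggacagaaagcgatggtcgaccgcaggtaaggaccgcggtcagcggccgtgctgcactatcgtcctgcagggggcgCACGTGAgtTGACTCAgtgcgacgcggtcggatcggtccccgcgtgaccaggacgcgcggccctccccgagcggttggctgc
C3ar1: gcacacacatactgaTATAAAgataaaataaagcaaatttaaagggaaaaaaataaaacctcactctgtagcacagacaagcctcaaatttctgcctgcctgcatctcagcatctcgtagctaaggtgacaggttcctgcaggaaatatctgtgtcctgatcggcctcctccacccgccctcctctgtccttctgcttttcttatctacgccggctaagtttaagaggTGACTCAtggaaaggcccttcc
In Mmp12 the first matched base lies 88 bases before the start, and in Spp1 113 bases before. The matches are descriptions of sequence, and binding was not measured.

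Most of the counted genes of matrix degradation were higher in members. Of 6 counted metalloproteinases and inhibitors other than Mmp12, 5 were at least 2-fold higher and 1 lower, with a median log2 ratio of 1.82. Over all 7712 counted genes the median was -0.05, with 3.51% at least 2-fold higher and 4.33% lower. The counts of this list and of those below stand beside these shares. Mmp14, which is anchored in the cell membrane, was at 66.3 CPM in members and 2.83 in comparison cells, and at equal depth 14.8% of members had a UMI against 0.551% of comparison cells. Mmp19 was at 468 CPM against 99.2, Adam8 at 97.9 against 9.67, and Timp2, an inhibitor of these enzymes, at 231 against 87.2. Mmp8, a neutrophil collagenase, went the other way, at 14.2 CPM against 44.1. Mmp13 was too sparse to be counted, with 36 UMIs in members and 2 in comparison cells.

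Among 10 counted secreted and matrix proteins, 5 were at least 2-fold higher and none lower, with a median of 1.15. The 5 include the label genes Spp1 and Mfge8. Fibronectin (Fn1) was at 1184 CPM (1124 to 1245) in members, 464 in comparison cells and 181 in control comparison cells, and 173 members had a UMI. Tgfbi, a matrix protein induced by TGF-beta, was level, at 408 against 405 CPM. Sparc was at 11.1 CPM against 13.7, below its level in B cell-like cells (195).

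Several growth factor transcripts were sparse in members, and others were deep but within 2-fold. Of 13 counted growth factors and receptors, 3 were at least 2-fold higher and none lower, with a median of 0.40. Igf1, insulin-like growth factor 1, had the deepest counts of the 3: it was at 370 CPM (337 to 405) in members, 116 in comparison cells and 27.8 in control comparison cells, and at equal depth 43.5% of members had a UMI. Tnfsf12, a TNF-family cytokine, was at 107 CPM on 135 UMIs in members against 51.2. Pdgfa, which drives fibroblast division, was at 28.4 CPM on 36 UMIs against 9.43. Grn, the progranulin gene, was at 717 CPM against 542, within 2-fold. Pdgfb had 24 UMIs, Csf1 22 and Inhba 28 in the 209 members, too few to be counted, and at equal depth 1.91% of members had a Csf1 UMI. Tgfb1 was at 167 CPM in members against 178 in comparison cells and 271 in control comparison cells, so the level of this central profibrotic factor was no higher in members. Csf1r, the receptor of colony-stimulating factor 1, was at 148 CPM against 82.0.

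Alternative activation genes, induced in macrophages by interleukin 4 and 13, were higher for 5 of 12 counted, with none lower and a median of 0.84. Over all counted genes 3.51% were at least 2-fold higher. The 5 include the label gene Arg1. Ccl17 was at 584 CPM (543 to 628) in members, 83.9 in comparison cells and 2.39 in control comparison cells, and 60 members carried it. Chil3 was at 56483 CPM against 29108 and 13569. Retnla was level over all cells, at 1342 against 1233 CPM, but 5 comparison cells held 78.3% of their Retnla UMIs, and between cells with 0.5% Chil3 or more the log2 ratio was 1.80. The receptor Il4ra, at 69.5 against 47.6 CPM, and Stat6, at 64.7 against 50.2 CPM, were within 2-fold.

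Lysosomal genes differed unevenly. Of 19 counted, 8 were at least 2-fold higher and none lower, with a median of 0.66. Cathepsin L (Ctsl) was at 1451 CPM (1386 to 1519) in members against 340, legumain (Lgmn) at 1004 against 297, cathepsin B (Ctsb) at 2864 against 1003 and prosaposin (Psap) at 8976 against 3675. Cathepsin D (Ctsd) was at 4005 against 3504 CPM and Cd68 at 391 against 374 CPM, so both were within 2-fold. Mitf, Tfec, Tfeb and Tfe3, the family of factors that control lysosomal genes, ranged from -0.15 to 0.75 on the log2 scale. Among all 20 counted transcription factors 1, Atf3, was at least 2-fold higher and 1, Nupr1, at least 2-fold lower.

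Genes for uptake of dying cells and lipid gave a split picture. Cd36, a scavenger receptor, was at 795 CPM against 251, and Msr1, another, at 63.2 against 20.5. Apoe was at 928 CPM against 296. The efferocytosis receptors Mertk (151 against 154 CPM) and Axl (271 against 413 CPM) were within 2-fold. Over the lists, 5 of 10 counted efferocytosis genes and 3 of 19 lipid genes were at least 2-fold higher, and 2 lipid genes, Cidec and Apoc1, were lower. The 5 include the label gene Mfge8, and Cd36 and Msr1 stand in both lists. Of the 9 chemokines counted, 6 were higher and Ccl5 was lower, among them Cxcl16 (192 against 23.8 CPM), Ccl4 (41.1 against 5.19 CPM), Cxcl2 (55.3 against 10.8 CPM) and Ccl9 (1142 against 258 CPM).

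Genes of resident alveolar macrophages were lower as a list. Of 13 counted, 6 were at least 2-fold lower and none higher, with a median of -0.94. The rule asked for 4 or more alveolar macrophage genes in comparison cells but only 2 in members. The part of this in the lower levels was not tested. With both groups limited to 0.5% Chil3 or more, 5 of 13 were lower and none higher, with a median of -0.73. Over the alternatives the median ranged from -1.12 to -0.35. Il18 was at 103 CPM (86.5 to 123) in members, 439 in comparison cells and 571 in control comparison cells. Ear1 was at 242 CPM against 654, Cidec at 41.1 against 122, Serpinb1a at 41.9 against 116, Siglecf, a defining surface lectin, at 51.3 against 108, and Kcnip4 at 12.6 against 38.0. Pparg, the factor that specifies alveolar macrophages, was at 45.8 CPM against 78.0. Itgax and Fabp4 lay on the higher side within 2-fold, at 644 against 361 and 528 against 395 CPM. Of the genes in the rule, given as description, Marco was at 37.1 CPM against 217 and Fabp1 at 70.3 against 428, while Mrc1, Lpl and Ear2 stood within a log2 ratio of 0.21.

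Genes of monocytes and interstitial macrophages were higher for 11 of 17 counted and lower for 1, with a median of 1.87. The median was 0.56 when comparison cells, like members, needed 2 of the 10 alveolar genes. C1qa was at 590 CPM in members against 73.8, and the early monocyte gene Ly6c2 at 11.1 against 17.2, where classical monocyte-like cells held 1304. C5ar1, the receptor for C5a, was the lower one, at 42.6 against 148 CPM. With both groups limited to 0.5% Chil3 or more, 9 of 17 were higher and 2 lower, and Ccr2 and Cx3cr1 were no longer among the higher ones, with log2 ratios of -0.01 and -0.74. MHC class II genes, which present antigen, were higher for 4 of 6 over all members, with a median of 1.25, and for 0 of 6 between Chil3-matched cells, with a median of 0.22. The class II median was 0.19 when members needed 4 of the 10 genes and -0.27 when comparison cells needed 2, so its sign depended on the rule.

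Several lists had median log2 ratios between -0.28 and 0.27 under the rule as given, though single genes in them passed 2-fold. Over all counted genes the median was -0.05, with 3.51% at least 2-fold higher and 4.33% lower. Of 13 counted glycolysis genes 1 was higher and none lower, with a median of 0.01. Of 7 inflammatory genes Il1b alone was past 2-fold, at 104 CPM against 44.1, and Tnf was at 18.2 against 20.5. None of 6 counted interferon-stimulated genes was past 2-fold in either direction. Over the alternatives the median of the interferon list ranged from -1.19 to 0.24 and that of the inflammatory list from -1.23 to 0.05. Of 9 counted iron and haem genes 2 were higher and 1 lower, of 12 immediate early and heat shock genes none was higher and 1 lower, and of 16 cell cycle genes none was higher and 2 lower. Of 13 antioxidant genes, 2 were higher and 1 lower, and Slc7a11, the cystine transporter, led at 70.3 CPM against 19.1. Hmox1, which breaks down haem, was at 243 CPM against 113 with 63 of the 308 UMIs of the members in 1 cell, and its log2 ratio was 0.54 without the 5 richest cells of each group. Cells with 4 or more of 16 proliferation genes at equal depth made up 5.26% of members (2.66 to 9.22%), 6.47% of comparison cells (4.80 to 8.52%) and 1.55% of B cell-like cells, so a difference in cycling was not detectable.

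**Figure D3:**
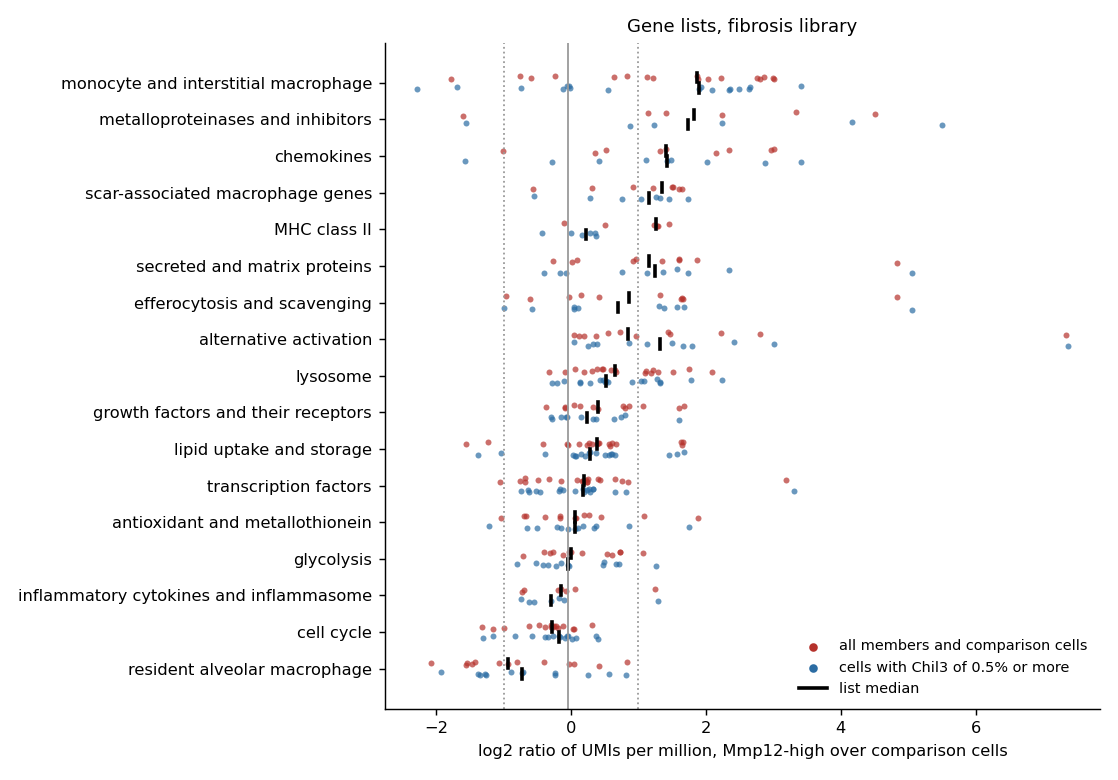
Log2 ratios of members over comparison cells, 1 point per counted gene, by list, for all cells (red) and for cells with 0.5% Chil3 or more (blue). Black bars are list medians, the solid grey line is the median of all counted genes at -0.05, and dotted lines mark 2-fold. The median of MHC class II goes from 1.25 in red to 0.22 in blue.

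The genes with the lowest ratios were mainly those of airway cells. They were Gal, Aldh1a1, Scgb3a2, Cyp2f2, Sec14l3, Scgb3a1, Scgb1a1, Epcam, Hp and Acot1. Scgb1a1, the secretory product of club cells, was at 3205 CPM in members and 25292 in comparison cells, where 6 cells with over 5% Scgb1a1 held 88.8% of it. Without such cells in either group the log2 ratio of Scgb1a1 was 0.09 instead of -2.98. Between Chil3-matched cells 4 of the 10 genes were still at least 2-fold lower. Among them, Gal, which encodes the neuropeptide galanin, was at 3.16 CPM in members on 4 UMIs, 76.4 in comparison cells and 121 in control comparison cells, and comparison cells held 71.2% of all Gal UMIs of the fibrosis library. Acot1, an acyl-CoA thioesterase, was at 11.1 CPM against 60.6, and Epcam, an epithelial adhesion gene, at 8.68 against 52.1.

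Markers of other cell types were counted beside these results. The 3 club cell genes summed to 3276 CPM in members, 26323 in comparison cells and 12687 in B cell-like cells. The 5 neutrophil genes summed to 981, 1400 and 7122 CPM, and the 4 alveolar type II genes to 2101, 2122 and 2785 CPM. Of the 4 B cell genes, 2 were at 0 in members, as were 2 of the 3 red cell genes. The part of such transcripts in the ratios was not tested.

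Within cells that had 0.5% Chil3 or more, levels of many genes ran with the share of Mmp12 on both sides of 0.1%. The cells were put into 6 classes by Mmp12, with 526 cells without a UMI, 164 under 0.1%, 48 from 0.1 to 0.2%, 49 from 0.2 to 0.5%, 28 from 0.5 to 1% and 38 at 1% or more. Median depth was 4866, 5613, 6544, 5409, 5141 and 4027 UMIs per cell. Because the classes were made on Mmp12, the levels are a description. Ctsl went from 266 CPM to 620, 755, 1088, 2237 and 3515 CPM across the classes. Mfge8 went from 22.4 CPM to 39.9, 329, 479, 1049 and 2203. For Mfge8, no step was seen at the 0.1% level itself, on few UMIs. All members between 0.1 and 0.12% held 39.1 CPM on 4 UMIs, and comparison cells between 0.08 and 0.1% held 50.3 CPM on 2. Rnase2a went from 7.59 to 103, 345, 319, 935 and 1845 CPM.

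Chil3 itself was at 25231 CPM without Mmp12 and at 52061, 60948, 68592, 74296 and 87413 in the further classes, so the cells richest in Mmp12 were also the richest in Chil3. Ctsb, Ctsk, Psap, Lgmn, Cd36 and Mmp19 were also highest in the last class, Mmp19 at 1254 CPM against 97.3 in the first. Spp1 was not ordered in this way: it was at 880, 2821, 2725, 5595, 3444 and 6990 CPM. Arg1 was at 12.3 CPM in cells without Mmp12 and at 271 in those with less than 0.1%, above the 170 of the class from 0.1 to 0.2%. The summed levels of both Spp1 and Arg1 were thus already raised below the level that makes a member, though few cells carried much of them. Of all 726 comparison cells, 42 had an Arg1 UMI, and 5 cells held 41.3% of the 334 UMIs. For Spp1 the 5 richest comparison cells held 31.6%.

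Several resident genes, though not all, ran the opposite way. Il18 went from 520 CPM to 389, 214, 130, 88.5 and 26.9, and Ear1 from 857 to 134. Fabp1, a gene of the rule, was at 559, 249, 166, 87.9, 12.6 and 35.8 CPM. Gal was at 101 CPM without Mmp12 and had no UMI in the 3 classes from 0.2% up. Car4 was at 508 CPM in the first class, 851 in the third and 71.6 in the last. Lpl, by contrast, was at 2018 CPM in the first class and 2682 in the last, and Ear2 lay between 2309 and 2945 CPM in the first 5 classes and at 1849 in the last. Mrc1, Atp6v0d2 and Fabp5 stayed within 1.5-fold of their first class throughout. Across the 163 Chil3-high members, Spearman's rho with the Mmp12 share was 0.57 for Ctsb, 0.53 for Rnase2a, 0.50 for Ctsl, 0.11 for Spp1, 0.07 for Gpnmb and -0.47 for Car4, over cells of 1 library that share mouse, handling and free RNA.

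**Figure D4:**
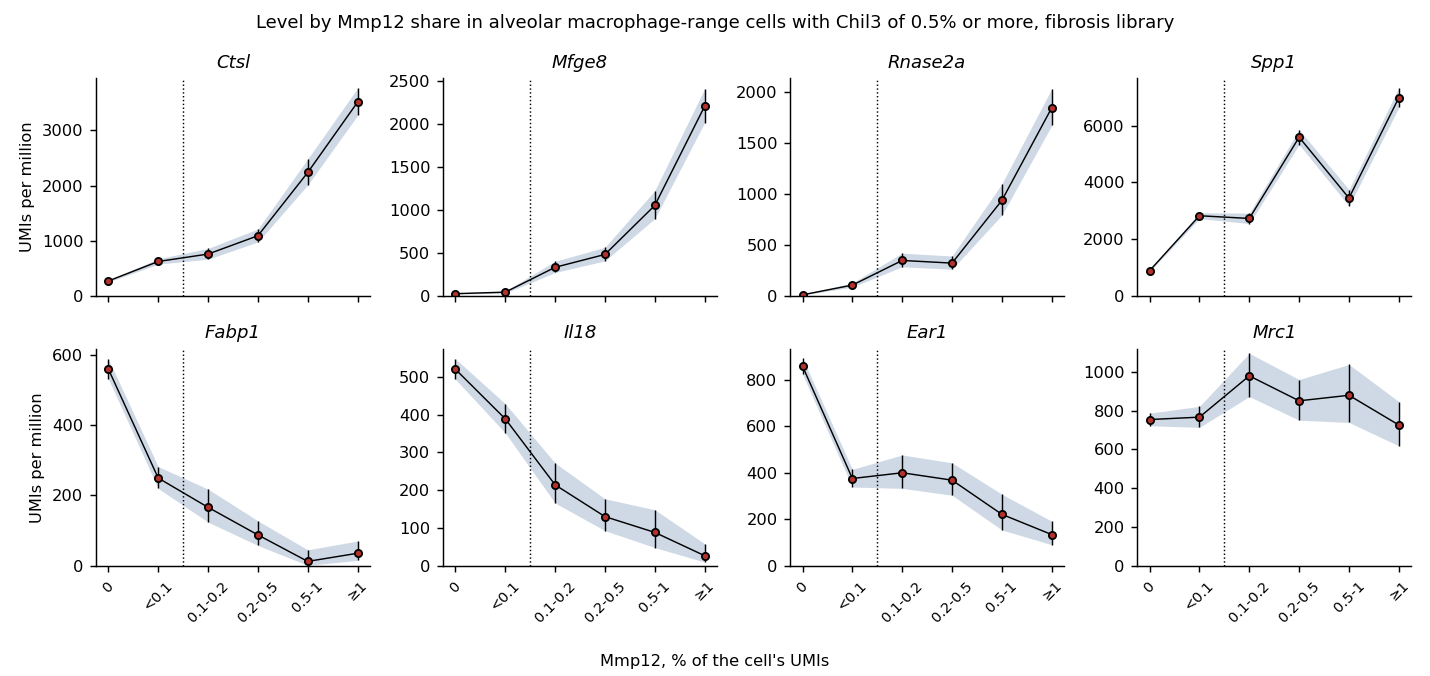
CPM of 8 genes in 6 classes of Mmp12 share, among alveolar macrophage-range cells with 0.5% Chil3 or more in the fibrosis library. Points are levels, bars and bands exact Poisson 95% intervals, and the dotted line the 0.1% level of the rule. Ctsl, Mfge8 and Rnase2a climb to the last class, Fabp1, Il18 and Ear1 descend, and Mrc1 stays between 725 and 979.

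The 27 Chil3-low members with interstitial genes carried less of the resident alveolar transcripts than the other members, and less of most label genes. Against the 163 Chil3-high members, 137 of 2996 counted genes (4.57%) were at least 2-fold higher and 350 (11.7%) at least 2-fold lower. The split used Chil3 and the 6 interstitial genes, so their values describe it. Chil3 was at 315 CPM in the 27 cells and 71304 CPM in the Chil3-high members. Car4, Siglecf, Fabp1 and Marco had no UMI in the 27 cells, and for Car4 the Chil3-high members were at least 25.3-fold higher, counting 3 UMIs as a bound. Of 12 counted resident genes 10 were at least 2-fold lower and none higher.

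All 6 counted MHC class II genes were at least 2-fold higher in these 27 cells, with a median log2 ratio of 3.88. Cd74, the class II invariant chain, was at 14970 CPM against 957. Apoe was at 4048 CPM against 445, Ccr2, the receptor that brings monocytes into tissue, at 303 against 23.0, and Cx3cr1, the fractalkine receptor, at 242 against 6.99. Pdgfb was at 115 CPM on 19 UMIs against 3.99, and 11 of the 19 came from 1 cell. Of the label genes, Spp1 was at 1616 CPM against 4670, Arg1 at 169 against 437, with 16 of its 28 UMIs in 1 cell, and Mfge8 at 448 against 907, while Gpnmb was at 514 against 548. Ctsl was at 635 CPM against 1707. Csf1 and Inhba had no UMI, but the bound of 3 UMIs puts the Chil3-high members at least 1.10-fold and 1.54-fold higher only. No 2-fold difference was read from these zeros.

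The same 27 cells were set beside the 285 interstitial macrophage-like cells of the fibrosis library, which had 4 or more interstitial and fewer than 4 alveolar genes and were not members. Of 2891 counted genes 188 (6.5%) were at least 2-fold higher in the 27 cells and 262 (9.06%) lower. Spp1 was at 1616 CPM against 97.2, Mfge8 at 448 against 39.1, Gpnmb at 514 against 52.1, Fabp5 at 1864 against 210, Ctsd at 4218 against 677 and Mmp19 at 242 against 15.0. Several of these levels rested on few of the 27 cells. Mfge8 was found in 10 cells, Gpnmb in 8, Mmp19 in 10, Fabp5 in 18, Spp1 in 19 and Ctsd in 24. A single cell held 32 of the 74 Mfge8 UMIs, and likewise 28 of 85 for Gpnmb, 15 of 40 for Mmp19 and 69 of 267 for Spp1. Ccl8, a chemokine, was lower, at 30.3 CPM on 5 UMIs against 1144, and Ccl12 had no UMI against 206 CPM. Maf, a factor of tissue macrophages, was at 72.6 against 564 CPM. The 27 cells were deeper, with a median of 5370 UMIs against 3134, and the part of depth was not tested. The remaining 19 Chil3-low members were highest of all these groups for Gpnmb, at 1911 CPM, and Mfge8, at 1261 CPM, with 1 Arg1 UMI. Single cells carried much of this: 6 of the 19 had a Gpnmb UMI and 1 held 109 of the 191, and 7 had an Mfge8 UMI and 1 held 74 of the 126.

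**Figure D5:**
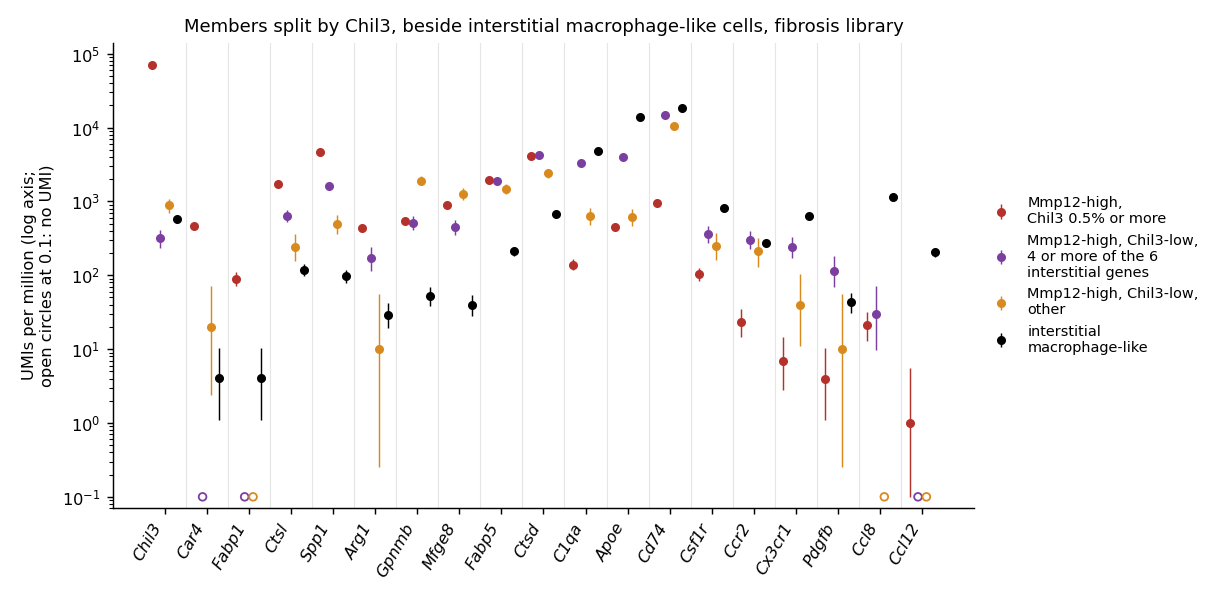
CPM on a log axis, of 19 genes in the members split by Chil3 and in interstitial macrophage-like cells of the fibrosis library. Bars are exact Poisson 95% intervals, drawn no lower than 0.1, and open circles at 0.1 stand for no UMI. The purple points, the 27 Chil3-low members with interstitial genes, lie near the red Chil3-high members for Gpnmb, Fabp5 and Ctsd and near the black interstitial macrophage-like cells for C1qa, Cd74 and Ccr2.

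Members were also set beside the comparison cells of the control library, which came from the other mouse. Of 7231 counted genes 356 (4.92%) were at least 2-fold higher in members and 435 (6.02%) lower, with a median of -0.11. Between the Mmp12-low comparison cells of the 2 libraries fewer genes passed 2-fold. Of 8582 counted genes, 168 (1.96%) were at least 2-fold higher and 67 (0.781%) lower in the fibrosis library. Both comparison groups were set by the same rule and held more UMIs, 4241777 and 3344809 against 1266566 in members. The 2 sets of counts therefore do not measure which groups lie closer. For Spp1, Arg1, Ccl17, Igf1, Fn1 and Rnase2a the comparison cells of the fibrosis library lay between members and control cells. For Gpnmb and Atf3 they were slightly below the control level. The 11 members of the control library held 206 Mmp12 UMIs, 22 of Spp1, 30 of Mfge8, 23 of Gpnmb and 2 of Arg1 in 48803 UMIs.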

How the data were processed

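The 2 deposited tables of UMI counts per gene and cell were made by the authors from 10x Genomics 3′ V2 libraries. Cell Ranger 1.3, bcl2fastq and the mm10 build are named in the submitters' processing notes. The deposited counts are raw, with barcodes already filtered. No column of other samples was present.

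Members and gene lists were chosen with earlier results of these data known. Python 3.11.15, numpy 2.4.6, scipy 1.17.1, pandas 2.3.3, scanpy 1.11.5 and matplotlib 3.10.9 were used. Cells with over 10% mitochondrial UMIs were removed. UMIs were summed over the cells of a group, and log2 ratios of CPM took a pseudocount of 0.5 UMIs. A gene was counted with 50 or more UMIs over both groups, and 2-fold was the level reported. Levels have exact Poisson and shares exact Clopper-Pearson 95% intervals, which cover counting error only. Cells of 1 mouse are not replicates, so no test was run. The procedure was tested on simulated data.

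Named genes were the 5 label genes, the 15 highest and 10 lowest log2 ratios among genes outside the rule with at least 50 CPM in the higher group, and members of 33 gene lists. Interstitial macrophage-like, classical monocyte-like and B cell-like cells were set by counts of markers. Doublets were kept, and as an alternative they were removed with scrublet in scanpy. Its threshold marked 5 of 8026 control cells (0.0623%), which is too few to have worked, so the 515 cells with the highest scores were removed there, and 167 of 6945 cells in the fibrosis library. For equal depth, cells were thinned to 1900 UMIs. No share of UMIs was corrected for free RNA. In all, 13 alternatives were planned and 5 were added after seeing the data.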

Additional observations from a re-analysis of the deposited data

How the results depend on the processing

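No paired analysis was possible because each group holds 1 library. Depth limits genes with few UMIs, and with 1 mouse per group nothing separates a group from its mouse. The share of members in the fibrosis library (22.4%) was 15.6% with Mmp12 at 0.2%, 28.2% at 0.05%, 19.0% with members held to 4 alveolar genes, 15.4% with comparison cells held to 2, 17.6% with at most 5% mitochondrial UMIs and 19.1% with 0.5% Chil3 or more. The control share (1.73%) was 0.791% with Mmp12 at 0.2%, 0.635% with members held to 4 alveolar genes and 0.498% with 0.5% Chil3 or more. The 271 genes at least 2-fold higher became 146 at equal depth, 444 with a minimum of 20 UMIs, 91 with 200 and 681 with the B cell-like level subtracted. The 334 genes at least 2-fold lower in Mmp12-high cells than in Mmp12-low cells of the fibrosis library became 203, 769, 85 and 709 in the same order (with the subtraction, 4101 genes were left to count), and 1178 with comparison cells held to 2 alveolar genes. The minimum changes how many genes are counted, and the cause of the other shifts was not tested.

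Of 483 values for 28 named genes, 357 stayed within the counting interval, 120 moved and 6 reversed. Of 402 list medians, 376 stayed within 0.5, 23 moved and 3 reversed. The reversals counted here are those of airway and class II genes. Medians of other lists also crossed 0 over the alternatives. The interferon-stimulated median ranged from -1.19 to 0.24 and the neutrophil median from -1.33 to 0.04. At equal depth the log2 ratio was 0.0206 for Scgb3a2, 0.59 for Cyp2f2, 0.23 for Sec14l3, 0.0255 for Scgb1a1 and 0.0255 for the club cell median. Without cells over 5% Scgb1a1 the log2 ratio of Cyp2f2 was 0.00348, that of Scgb1a1 0.0874 and the median log2 ratio of club cell markers 0.00348. With comparison cells held to 2 alveolar genes the MHC class II median was -0.27. Leaving out doublets or shared barcodes moved none of the 57 values computed under each.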
